A study of Drosophila melanogaster with 12 samples.

Results

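The genes described here encode the initiation and elongation factors of translation in the heads of adult Drosophila melanogaster. They were chosen by name: every gene whose single symbol in the platform annotation begins with eIF or eEF was taken, whatever its level. This gave 42 genes measured by 48 probe sets, out of 10844 singly named genes and 13966 probe sets that are not array controls. For 5 genes with more than 1 probe set, the one with the highest mean Signal was used.

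RNA was measured on Affymetrix oligonucleotide arrays, 12 in all, with 2 arrays for each sex of 3 lines. The wild-type strain is Canton S B. BG02514 and BG02257 come from a collection of fly stocks that carry a P{GT1} gene-trap transposon, and its position in each of these stocks was not stated in the sources used here. All groups were kept together on a 12 h light cycle, at a temperature of 25 °C and a humidity of 70%. Each sample was a pool of heads from 100 flies of one sex, aged 5 to 7 days. No group received a treatment, and a pool gives no information on single flies. Both BG02257 male arrays carry replicate number 1 and are called 1a and 1b. They were counted as separate samples, although they may be repeat arrays of 1 sample. The labels do not say whether replicate pools came from separate cultures, so p-values measure the spread between these pools. If 1a and 1b are repeat arrays, that pair adds only spread between arrays.

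In eukaryotes, the eIF4F complex binds the cap of an mRNA and recruits the small ribosomal subunit, which carries eIF3, the initiator tRNA bound to eIF2, and further factors. When the start codon is recognised, eIF5 and eIF5B help the large subunit to join, and eIF2B reloads eIF2 with GTP. The eEF1 complex then delivers each aminoacyl-tRNA to the ribosome, eEF2 moves the ribosome along the mRNA, and eIF5A, named eEF5 in flies, helps where peptide bonds form slowly.

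Of 52 genes with such names in the RefSeq gene table, 10 had no probe set with a single name and were not analysed here. They are eEF1alpha1, eEF1beta, eEF2, eIF1A, eIF2alpha, eIF2gamma, eIF2D, eIF4B, eIF4EHP and eIF4H1. Several core factors, among them the translocase eEF2 and 2 of the 3 subunits of eIF2, are therefore outside the measurements.

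Signal, the unit of every level given below, is a relative intensity, with the trimmed mean made equal on all arrays. It compares one gene between samples and cannot rank different genes, because each probe set has its own response. Testing required a mean Signal no lower than the 40th percentile, 128, which 8380 probe sets reached. Of the 42 factors, 32 passed this filter and 10 did not, and no member lay close to it. The brightest untested factor, eIF3f2, had a mean of 81.7, and the dimmest tested one, eIF2Bgamma, had 291.

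**Figure D1:**
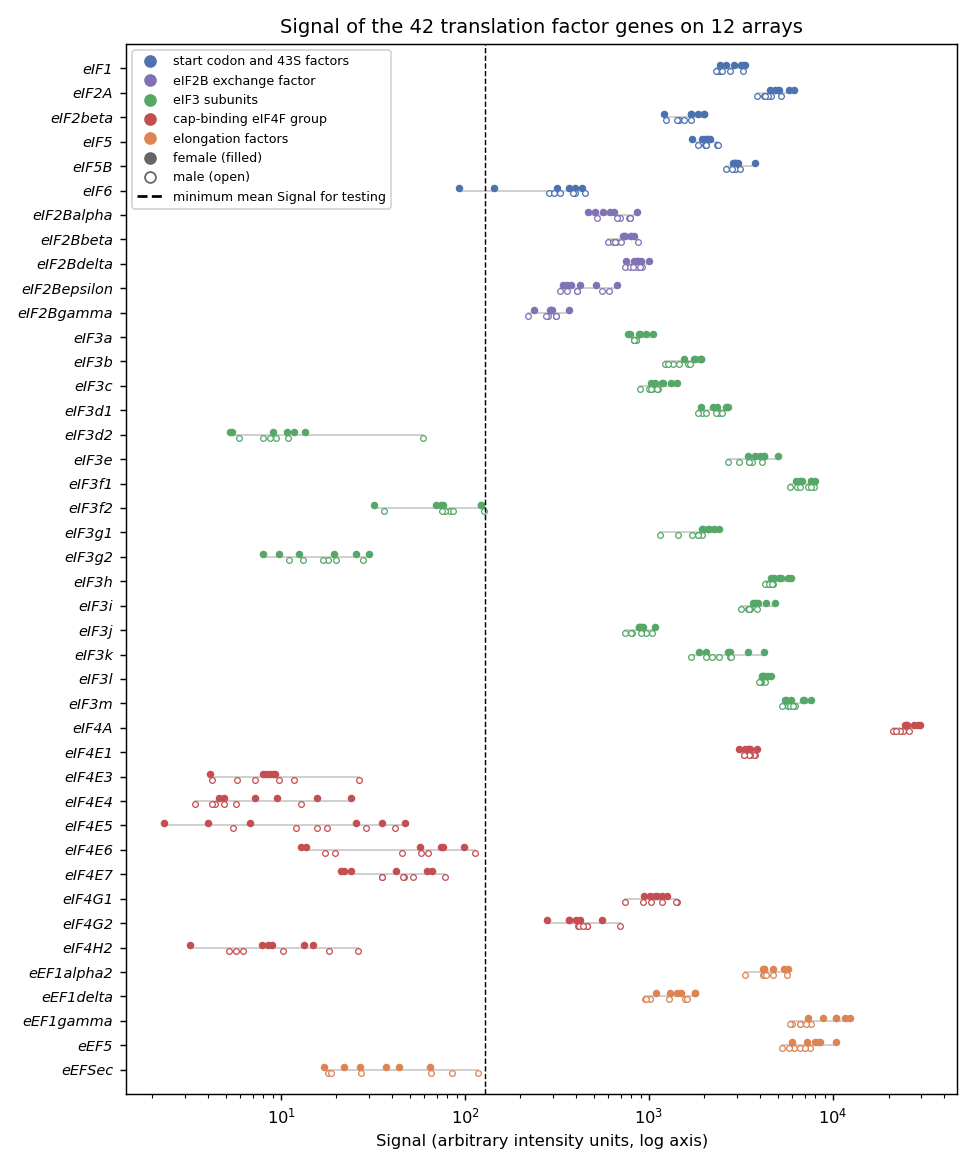
Signal (log axis) of each of the 42 factors on the 12 arrays, with filled points for females and open points for males. The 10 factors left of the dashed line, whose means lie between 8.45 and 81.7, did not reach the minimum mean Signal of 128.

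The 10 untested factors stayed at or below a Signal of 127 on every array. They include 5 genes of the eIF4E family of cap-binding proteins. Signal ran from 4.10 to 26.6 for eIF4E3, from 3.40 to 24.1 for eIF4E4 and from 2.30 to 47.2 for eIF4E5. For eIF4E6 it ran from 12.9 to 113, and for eIF4E7 from 21.3 to 78.0. The eIF3 paralogs eIF3d2 (5.30 to 59.3), eIF3f2 (32.1 to 127) and eIF3g2 (8.0 to 30.1) were also dim, while eIF3d1, eIF3f1 and eIF3g1 passed the filter. The other untested genes were eIF4H2, with 3.20 to 26.1, and eEFSec, the selenocysteine elongation factor, with 17.2 to 117. Among these 10 genes the highest array exceeded the lowest by 3.66 to 20.5 times. Among the 32 tested genes this ratio lay between 1.16 and 4.86, with a median of 1.58.

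The arrays resembled each other in overall brightness, with median Signals from 182.9 to 206.1, and replicates correlated at Spearman's rho of 0.942 to 0.964 across probe sets. The head and photoreceptor markers chp, inaC and trp, all with known roles in the eye, had mean Signals of 9116, 4742 and 11671. Of these chp differed between lines, with 1898 to 4731 in Canton S B and 10054 to 12906 in the insertion lines. On the BG02257 male 1a array Yp1, a yolk protein gene of female fat body, read 6747, against 172 to 496 on the other male arrays. The summed Signal of 4 neuron markers was lowest on the same array, at 1559 against 2759 to 3657 on the others. The call that changed when this array was left out, that of eIF3g1, is given both ways below.

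The first comparison asked which factors differ between female and male heads, averaged over the 3 lines with equal weight. Of the 32 tested factors 1, eEF1gamma, was called higher in females and 0 were called lower (limma, Benjamini-Hochberg adjusted p under 0.05). This is a share of 3.12%, where 2.84% of all 8380 probe sets were called in either direction and 1.96% were called higher. The small differences of the other factors lay mostly on the female side. The log2 difference, female minus male, was above 0 for 27 of 32 factors, or 84.4%, against 50.2% of all probe sets tested. Its median was 0.14 for the factors and 0.00 for all probe sets.

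At an unadjusted p under 0.05, 7 factors lay above 0, against 8.29% of all probe sets, and 1, eIF6, lay below, against 6.73%. All 7 had a mean Signal of at least 1000, and 277 of the 1998 probe sets that bright lay above 0 at such a p (limma). The differences were small: 23 of the 32 factors lay within 0.25 of 0 on the log2 scale. Their median size, whatever the sign, was 0.19, against a median standard error of 0.11. Most factors above 0 were bright. Of 23 factors with a mean Signal of at least 1000, 21 were above 0, with a median of 0.20, whereas 51.1% of all probe sets that bright were. The called share of these bright factors was 4.35%, against 7.46% of all probe sets that bright. Among the 9 tested factors below 1000, 6 were above 0 and the median was 0.05. With the 10 dim genes included, 28 of 42 were above 0 and the median was 0.08. The median of the 32 factors on one array, as a deviation from each gene's mean, was 0.13 and 0.15 in Canton S B females and -0.10 and -0.02 in Canton S B males. It was -0.01 and 0.07 in BG02514 females and -0.08 and -0.05 in the males of that line. In BG02257 it was 0.01 and 0.02 in females and -0.01 and -0.09 in males, so the female and male arrays came closest there. In whole heads, fewer cells of a type and less RNA per cell cannot be told apart.

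**Figure D2:**
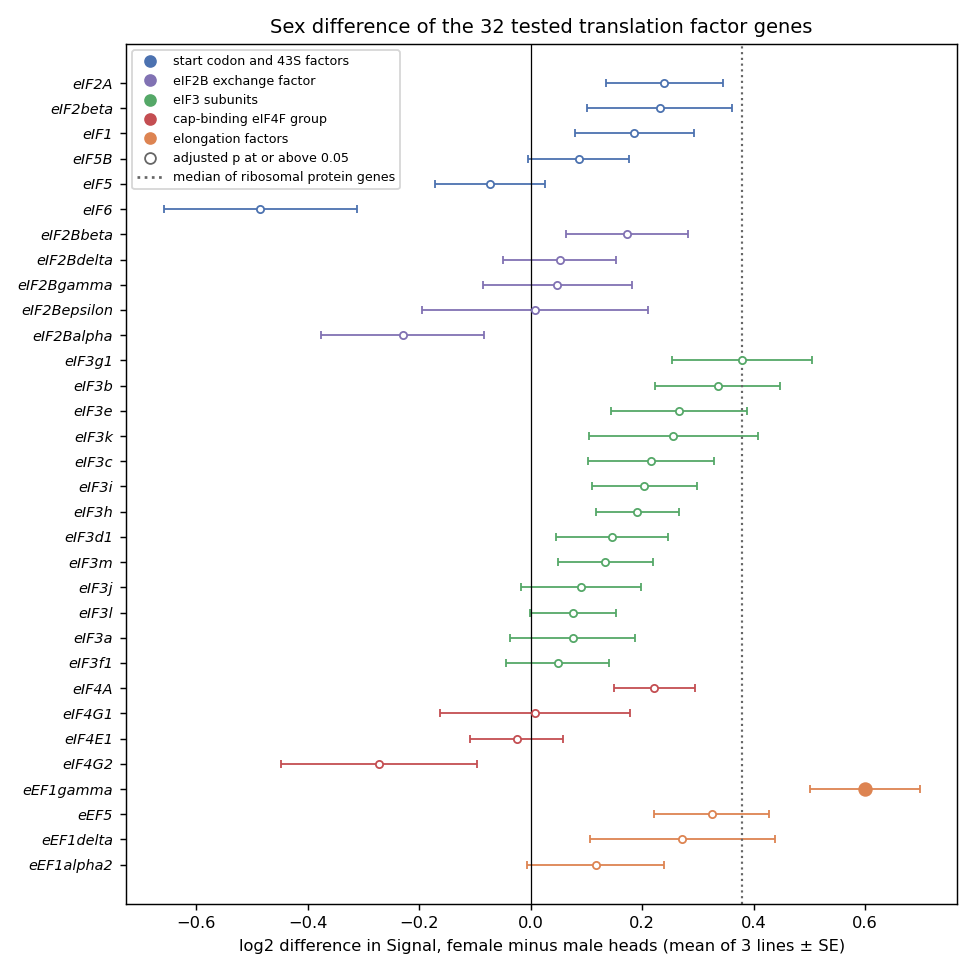
Log2 difference in Signal, female minus male, averaged over the 3 lines, for each tested factor with its standard error. The filled point marks eEF1gamma, at 0.60 the single gene called, all 13 eIF3 subunits lie right of 0, and the dotted line marks the median of the ribosomal protein genes, 0.38.

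The elongation factors included the single call. eEF1gamma is a structural subunit of the eEF1 complex and helps to anchor the subunits that recharge eEF1 alpha. In females it read 12374 and 10351 in Canton S B, 10393 and 11609 in line BG02514, and 7340.3 and 8843 in BG02257. Its male readings were 5950.4 and 7632, then 6621 and 7152, then 5833 and 6602, in the same order of lines. Females lay above males in every line, and over all arrays only the lower BG02257 female fell below the highest male, of Canton S B. Mean Signal was 10152 ± 1832 in females against 6632 ± 689 in males (± SD, n = 6 arrays each). The difference was 0.60 ± 0.10 (SE) on the log2 scale, a 1.52-fold higher level in females, with a limma adjusted p of 0.00821 and a 95% interval of 0.38 to 0.82. Within lines it was 0.75 in Canton S B, 0.67 in line BG02514 and 0.38 in BG02257. The call was lost when limma was fitted without its variance trend (adjusted p = 0.0503), and in a two-way linear model of line and sex fitted to the untransformed Signal of each probe set alone, the analysis that the labels describe (adjusted p = 0.0552). With each array left out in turn the call was kept, at adjusted p from 0.00782 to 0.0394 (limma).

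eEF5, which is the eIF5A of other species, had 1 of the 7 lower p-values on the female side. Its female Signals were 8513 and 8274 in Canton S B, 7958 and 10417 in line BG02514, and 7195 and 5964 in BG02257. Males of these lines read 6132 and 5252, 7471 and 6633, and 7070.4 and 5747. The sexes were separate in Canton S B and BG02514 and overlapped in BG02257. The difference of 0.32 ± 0.10 did not pass the test (adjusted p = 0.150), and it was 0.04 in BG02257, 0.37 in BG02514 and 0.56 in Canton S B.

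Of the eEF1 genes measured, only eEF1gamma was called between the sexes, and whether they differ from each other was not tested. eEF1delta, another exchange subunit, read 1089 and 1485 in Canton S B females, 1773 and 1774 in BG02514 females, and 1427 and 1293 in BG02257 females. In males it read 1277 and 956, 1016 and 1562, and 1616 and 968, so the sexes overlapped in Canton S B and BG02257. Its difference was 0.27 ± 0.17 with an adjusted p of 0.483. The 95% interval of -0.09 to 0.64 holds the 0.60 of eEF1gamma. eEF1alpha2, the copy of the aminoacyl-tRNA carrier that is typical of adult nervous tissue, read 4689 and 4229, 4233 and 4142, and 5437 and 5692 in females of Canton S B, BG02514 and BG02257. The matching male Signals were 4148 and 4729, 4195 and 4302, and 3325 and 5621, where 3325 belongs to the BG02257 male 1a array. Its sex difference was 0.12 ± 0.12, with a 95% interval from -0.15 to 0.39. That interval does not reach the estimate for eEF1gamma but meets the lower end of its interval, 0.38.

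**Figure D3:**
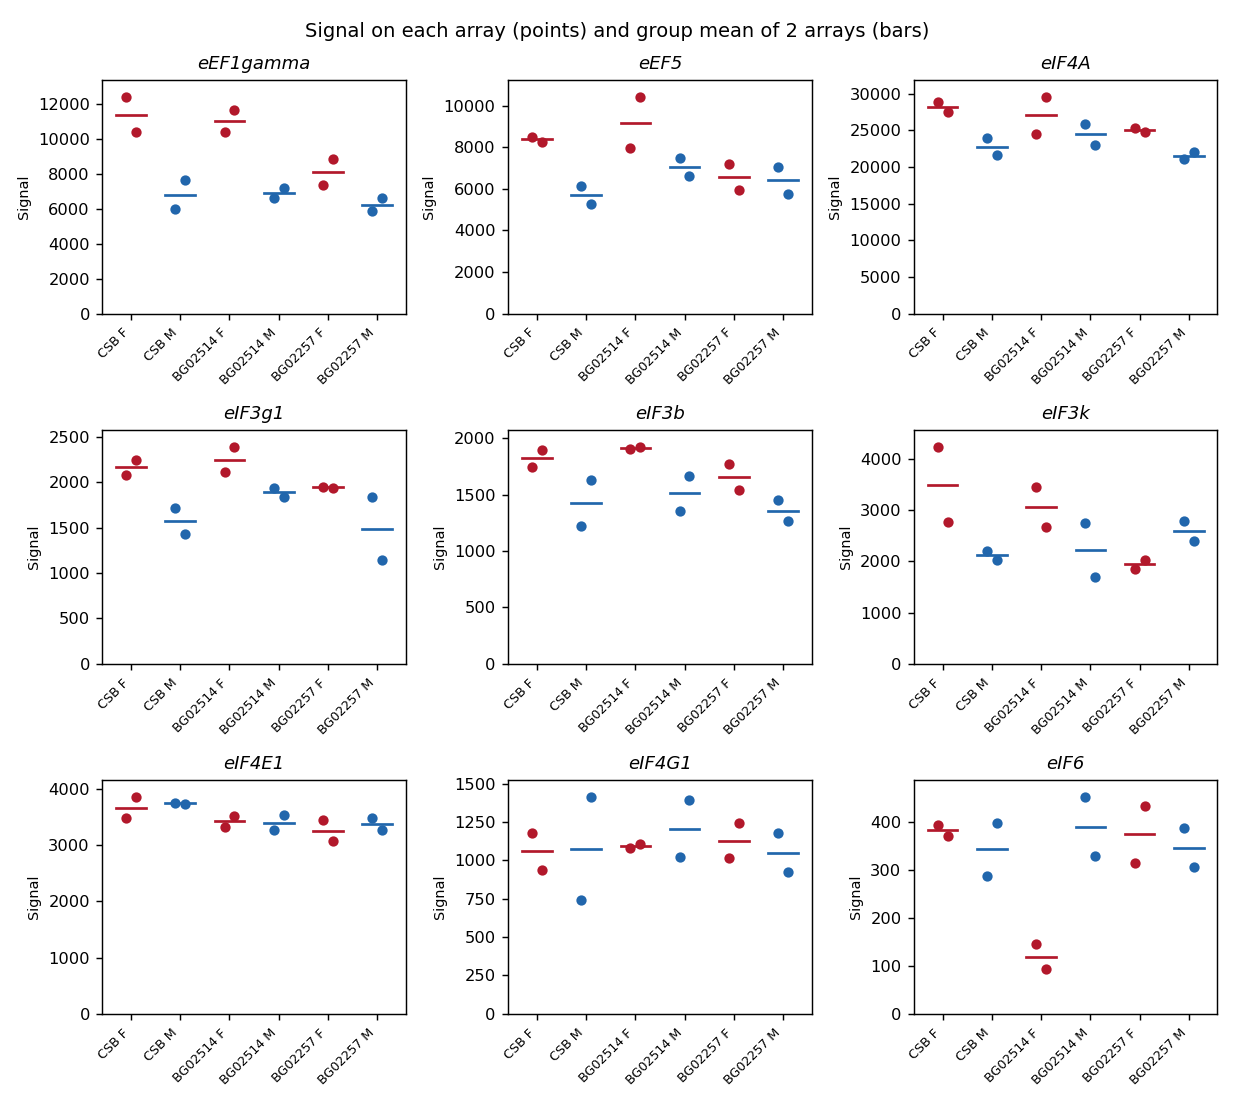
Signal of 9 factors on each array (points; red for females, blue for males) with the mean of 2 arrays as a bar. CSB stands for Canton S B, F and M for female and male. eEF1gamma is higher in females of every line, eIF4E1 and eIF4G1 overlap between the sexes in every line, and eIF6 reads 144 and 92.7 in BG02514 females.

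The eIF3 complex is the large scaffold on the small ribosomal subunit that links it to eIF4F and the mRNA. Of 16 eIF3 genes on the array, 13 were tested and 0 were called (limma, adjusted p under 0.05). Above 0 at an unadjusted p under 0.05 there were 3, against 8.29% of all probe sets. These 3 had a mean Signal over 1000, and 277 of the 1998 probe sets that bright lay above 0 at such a p. All 13 had a log2 difference above 0, from 0.05 for eIF3f1 to 0.38 for eIF3g1, with a median of 0.19. The female and male arrays did not overlap within any of the 3 lines for 5 factors in all, eEF1gamma and the subunits eIF3b, eIF3g1, eIF3h and eIF3i. That is 5 of 32, where 3.59% of all probe sets showed females above males in each line. All 5 had a mean Signal over 1000, as did 23 factors, and among all probe sets that bright the share was 7.81%. No factor had all 6 female arrays above all 6 male arrays, a pattern found in 1.91% of probe sets.

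eIF3g1 encodes an RNA-binding subunit. Female Signals were 2083 and 2249 in Canton S B, 2115 and 2389 in line BG02514, and 1954 and 1939 in BG02257. Male Signals were 1718 and 1437, 1944 and 1838, and 1841 and 1141 in those lines. The difference was 0.38 ± 0.13 with an adjusted p of 0.171, and the low male value of 1141 came from BG02257 male 1b. Without the BG02257 male 1a array the gene was called, at 0.49 and an adjusted p of 0.0303, and without 1b it was 0.26 with an adjusted p of 0.208.

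eIF3b, a core scaffold subunit, had nearly the same difference in all lines, 0.37 in Canton S B, 0.35 in line BG02514 and 0.29 in BG02257. It read 1749.5 and 1897, 1908 and 1921, and 1774 and 1543 in females of those lines, in that order. In males the Signals were 1224 and 1627, 1353 and 1669.6, and 1453 and 1263. The mean difference of 0.34 ± 0.11 did not pass the test, with an adjusted p of 0.173.

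eIF3h, a subunit of the outer part of eIF3, had a difference of 0.19 ± 0.07 (adjusted p = 0.251). It read 5875 and 5677 in Canton S B females, 4585 and 4761 in BG02514 females, and 5089 and 5203 in BG02257 females. Males read 4734 and 4596, 4447 and 4286, and 4485 and 4669. The 2 Canton S B females were above every other array, and the other 10 arrays lay between 4286 and 5203. In the two-way model of untransformed Signal eIF3h was the single factor called, at a difference of 662 in Signal and an adjusted p of 0.0184. A second, dimmer eIF3h probe set, with a mean Signal of 254, had a difference of -0.17 ± 0.22.

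eIF3e had a difference of 0.27 ± 0.12 (adjusted p = 0.337). Females read 3742 and 4988 in Canton S B, 4229 and 4204 in line BG02514, and 4010.0 and 3436 in BG02257. The males read 3482 and 3099, 3644 and 3506, and 4083 and 2682. Only in BG02257 did the sexes overlap, where the 1a male array lay above both female arrays.

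eIF3k, a small accessory subunit, differed in its direction between the lines. Female Signals were 4237 and 2765 in Canton S B, 3452 and 2671 in line BG02514, and 1856 and 2029 in BG02257. The male Signals were 2209 and 2037, 2759 and 1687, and 2789 and 2398. The log2 difference was 0.69 in Canton S B and 0.49 in line BG02514, and in BG02257, where both males lay above both females, it was -0.41. A test of whether the sex difference depended on line gave an F of 5.06 and a p of 0.0274, with a limma adjusted p of 0.9997, so this reversal did not pass over all probe sets.

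At the other end, eIF3l was the most even of the factors. It ranged only from 3953 to 4592 over the 12 arrays, a ratio of 1.16, and had a sex difference of 0.08 ± 0.08. eIF3a (0.08), eIF3f1 (0.05) and eIF3j (0.09) also had differences of less than 0.1. eIF3c, eIF3i, eIF3d1 and eIF3m lay between, at 0.22, 0.20, 0.15 and 0.13, with adjusted p from 0.339 to 0.545.

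The cap-binding group divided by gene. eIF4A is the RNA helicase that unwinds the leader of the mRNA. In females it read 28805 and 27487 in Canton S B, 24501 and 29529.5 in BG02514, and 25362 and 24794 in BG02257. Male arrays gave 23902 and 21597, 25884 and 23051, and 21118 and 21977. The sexes were apart in Canton S B and BG02257 and overlapped in BG02514. Mean Signal was 26746 ± 2159 in females against 22922 ± 1769.6 in males (± SD, n = 6 arrays each), a difference of 0.22 ± 0.07 that did not pass the test (limma adjusted p = 0.163).

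The array also carries 3 control probe sets for eIF4A, placed along the transcript from its 5' to its 3' end, which did not enter the limma fit. At the 5' end Signal was 10312 ± 1312 in females against 8235 ± 1145 in males (± SD, n = 6 arrays each), a log2 difference of 0.33. An exact permutation test of arrays within lines, two-sided over 216 assignments, gave p = 0.00926, the smallest p that it can give, and 0.0556 after adjustment over 6 control measures. The middle probe set differed by 0.20 (exact p = 0.0463, adjusted 0.139) and the 3' probe set by 0.16 (exact p = 0.102, adjusted 0.204). All the control probe sets were thus higher in females on average, by differences in the range of the main probe set, and 0 of 3 passed after adjustment.

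The ratio of 3' to 5' Signal is a common sign of RNA quality. For eIF4A it was 2.31 ± 0.42 in females against 2.59 ± 0.38 in males (± SD, n = 6 arrays each; exact p = 0.269). The actin ratio was 2.07 against 2.54 (exact permutation p = 0.343) and the GAPDH ratio 4.52 against 4.62 (p = 0.704). None of the 3 ratios passed the test. Whether these differences have a part in the female values was not tested.

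eIF4E1, the main cap-binding protein, showed almost no difference between the sexes. Females read 3481 and 3846 in Canton S B, 3317 and 3522 in line BG02514, and 3446 and 3066 in BG02257. Males read 3751 and 3725, 3267 and 3528, and 3473 and 3270.1, overlapping the females in each line. The difference was -0.02 ± 0.08, with a 95% interval from -0.21 to 0.16, which bounds any sex difference of this gene to well below that of eEF1gamma.

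eIF4G1, the scaffold that joins eIF4E to eIF4A, was less precisely measured. It read 1179.7 and 938 in Canton S B females, 1081 and 1109 in BG02514 females, and 1013 and 1246 in BG02257 females. Males ranged wider, with 741 and 1412, 1019 and 1396, and 1178 and 923. Its difference was 0.01 ± 0.17 and the interval ran from -0.37 to 0.38, so a difference as large as that of eIF4A lies inside it.

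eIF4G2 is a paralog known in flies for its role in the male germline. It read 553 and 279.7, 365 and 420.3, and 369 and 399.8 in females of Canton S B, BG02514 and BG02257. In males the readings were 458 and 691, 409.6 and 415, and 461 and 437. The difference was -0.27 ± 0.18 with an adjusted p of 0.511, and the highest array was a Canton S B male. Its list of testis and accessory gland markers had 3 of 10 members above the brightness filter, eIF4G2 itself among them, and 7 below. Their summed Signal was 764 to 1212 in females and 876 to 1299 in males.

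The group of start codon factors, in which eIF6 was also counted, gave no call among 6 tested (0 at an adjusted p under 0.05, limma). Unadjusted p was under 0.05 for 1 above 0, eIF2A, and 1 below, eIF6, against 8.29% and 6.73% of all probe sets. The difference was above 0 for 4 of the 6 factors and the median was 0.14. eIF2A, an alternative initiator tRNA factor, read 6144 and 5031, 4856 and 5726, and 4547 and 5098 in females of Canton S B, BG02514 and BG02257. Its male Signals were 3848 and 5192, 4611 and 4214, and 4455 and 4243. The sexes overlapped in Canton S B only, and the difference was 0.24 ± 0.10 (adjusted p = 0.311).

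eIF2beta, a subunit of the eIF2 complex, read 1979.8 and 1695 in Canton S B females, 1694 and 1995 in BG02514 females, and 1204 and 1849 in BG02257 females. Males read 1443 and 1455, 1540.3 and 1238, and 1691 and 1424. BG02257 female 1 was the lowest of all 12 arrays. The difference was 0.23 ± 0.13 with an adjusted p of 0.442.

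eIF1, which guards the choice of start codon, differed by 0.19 ± 0.11 (adjusted p = 0.453). eIF5, the factor that triggers GTP hydrolysis by eIF2, read 2148 and 2106, 1948 and 1709, and 2009.9 and 2076 in females of Canton S B, BG02514 and BG02257. In males it read 2047 and 2329, 2012 and 2048, and 2362 and 1835. Its difference was -0.07 ± 0.10, and the sexes overlapped in Canton S B and BG02257. eIF5 and eEF5 encode unrelated proteins despite their names, and both were measured here.

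eIF5B, the subunit-joining factor, had 3 probe sets. Their sex differences were 0.09 ± 0.09, -0.13 ± 0.13 and 0.24 ± 0.14 from the brightest to the dimmest, and 0 of the 3 were called (limma). The probe sets thus differ in sign for this gene.

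eIF6 keeps the large ribosomal subunit from joining too early and has a role in its assembly, and it gave the widest spread of the tested factors. Females read 394 and 369 in Canton S B, 144 and 92.7 in BG02514, and 315 and 433 in BG02257. The males read 287 and 398, 450.5 and 328, and 386 and 306. Both BG02514 females stood below all 10 other arrays, which lay between 287 and 450.5 with a mean of 367 ± 55.5 (SD, n = 10). Within BG02514 the mean was 118 in females and 389 in males, a log2 difference of -1.73 ± 0.30 (SE) with a limma adjusted p of 0.0705. The female mean lay under 128, the minimum mean Signal for testing, so the size of this difference rests on dim values. The differences were 0.17 in Canton S B and 0.10 in BG02257.

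The test of whether the sex difference of eIF6 depended on line gave an F of 13.0 and a p of 0.00124, with the sixth largest F of the 8380 probe sets, but an adjusted p of 0.9997. In this test 0 of all probe sets were called (0%), and 2.8% had an unadjusted p under 0.05, as did 2 factors, eIF6 and eIF3k. Averaged over lines, the sex difference of eIF6 was -0.49 ± 0.17 (adjusted p = 0.204). A second eIF6 probe set was too dim to test. It read 44.9 and 43 in BG02514 females, while the other arrays ran from 31.8 to 132.5, and 3 of them lay below both.

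The eIF2B exchange factor, which recharges eIF2 and is the target of stress signalling through eIF2 phosphorylation, was measured by all 5 of its subunits. Of these 0 were called and 0 had an unadjusted p under 0.05 (limma), 4 were above 0 and the median was 0.05. eIF2Bbeta differed by 0.17, eIF2Bdelta by 0.05, eIF2Bgamma by 0.05 and eIF2Bepsilon by 0.01.

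eIF2Balpha, a regulatory subunit, was the exception in sign. It read 565 and 860.2 in Canton S B females, 644 and 609.6 in BG02514 females, and 466 and 509 in BG02257 females. Males read 790.4 and 520.2, 691 and 781, and 671 and 789.9. Males lay above females in BG02514 and BG02257, and the sexes overlapped in Canton S B. The difference was -0.23 ± 0.15 (adjusted p = 0.504), and in BG02257 alone it was -0.58.

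Within single lines 0 factors were called, where limma called 0.406% of all probe sets in Canton S B, 0.119% in line BG02514 and 0.143% in BG02257. At an unadjusted p under 0.05 there were 6 factors in Canton S B, all above 0, where 7.77% of all probe sets passed. All 6 had a mean Signal of at least 1000, and 187 of the 1998 probe sets that bright lay above 0 at such a p (limma). There were 2 in BG02514, 1 on each side of 0, against 7.55%, and 2 in BG02257, again 1 on each side, against 8.52%. The median difference was 0.19 in Canton S B, 0.12 in line BG02514 and 0.10 in BG02257, with 28, 23 and 22 of 32 factors above 0. Of all probe sets 48.8%, 49.6% and 50.7% were. In all 3 lines at once 15 of 32 were above 0, against 20.2% of all probe sets. Of the 23 factors with a mean Signal of at least 1000, 13 were, against 519 of the 1998 probe sets that bright. The difference was smallest in BG02257 for 16 of 32 factors, where this held for 34.9% of probe sets, and largest in Canton S B for 16 of 32, against 32.3%. Among factors with a mean Signal of at least 1000 each of these counts was 13 of 23, against 779 and 756 of the 1998 probe sets that bright. With no call in the test of line dependence, the lines were not shown to differ in the sex difference of any factor.

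**Figure D4:**
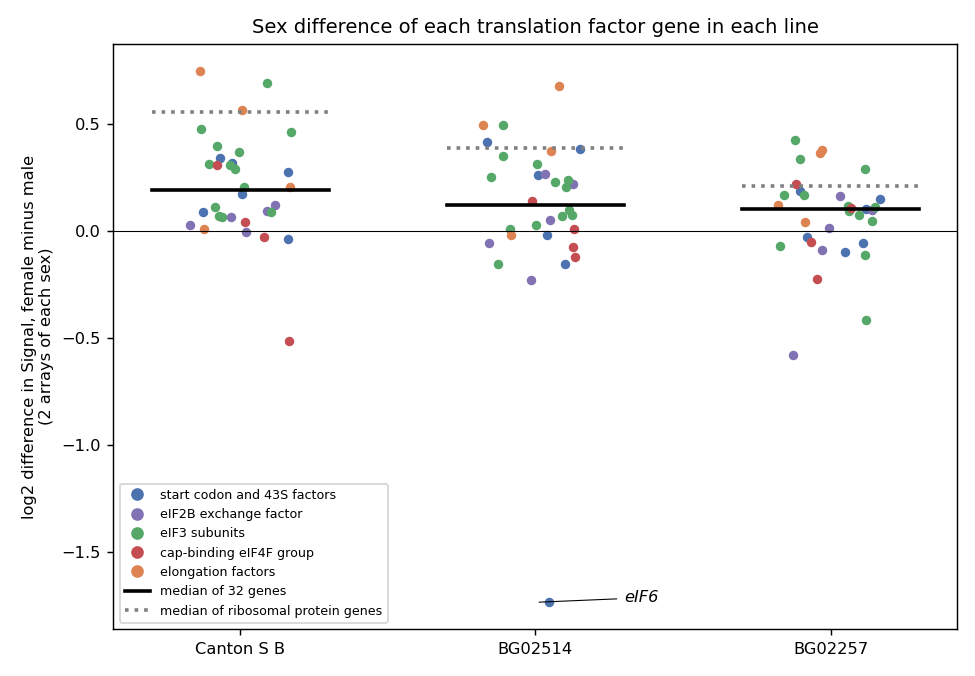
Log2 difference in Signal, female minus male, of the 32 tested factors within each line, one point a gene (2 arrays of each sex). The black bars mark the medians of 0.19, 0.12 and 0.10, the dotted bars those of the ribosomal protein genes, and eIF6 in BG02514 lies at -1.73.

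Other parts of the translation machinery were read from gene lists. Cytosolic ribosomal proteins, the protein parts of the ribosome, were listed by symbol, with 37 genes on the array, RpL7-like and RpL24-like among them. Of the 32 tested, 21 were called higher in females and 0 lower (limma, adjusted p under 0.05). Of all probe sets 1.96% were called higher, and of the 1998 with a mean Signal of at least 1000, 114 were. The tested ribosomal genes had a median difference of 0.38, with 31 above 0. Their median was 0.55 in Canton S B, 0.39 in line BG02514 and 0.21 in BG02257, and 29 of the 32 were above 0 in each line. RpS5b was the single tested ribosomal gene below 0, at -0.20. This list was already known from these samples to be higher in females, so it is not independent evidence for the factors.

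Averaged over lines, a smaller share of the genes of translational control than of the factors lay on the female side. Of 21 such genes on the array, 20 were tested and 0 were called between the sexes. Unadjusted p (limma) was under 0.05 for 2 above 0 and 0 below, against 8.29% and 6.73% of all probe sets. Only 7 of 20 were above 0, and the median was -0.07. The release factor eRF3 had the highest value, 0.39 with an adjusted p of 0.0843, while the poly(A) binding protein gene pAbp was at 0.03 and gig, the Tsc2 gene of the Tor pathway, at -0.30.

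Aminoacyl-tRNA synthetases, which load amino acids onto tRNAs, also gave 0 calls among 25 tested genes. Unadjusted p (limma) was under 0.05 for 2 above 0 and 2 below, against 8.29% and 6.73% of all probe sets. Of the 25 genes, 14 were above 0 and the median was 0.03. AlaRS had a mean Signal of 438 ± 69.6 in females against 220.4 ± 122 in males (± SD, n = 6 arrays each), with a difference of 1.17 ± 0.28 and an adjusted p of 0.0524. For MetRS-m, the mitochondrial methionine enzyme, the difference was -0.49. All 4 tested mitochondrial translation factors of 8 on the array lay below 0, with a median of -0.04, and 0 were called or had an unadjusted p under 0.05 (limma).

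Markers of other cell types were summed on the same arrays. Of all probe sets, 8.29% lay above 0 at an unadjusted p under 0.05 (limma) between the sexes, and 6.73% below. Fat body markers summed to between 100129 and 122425 in females and to between 12915 and 34510 in males, where 2 of 4, Yp1 and fit, were called higher in females. Most of the female sum was Yp1, with a mean of 85212. The other markers were not called: Lsp2, a larval serum protein gene, was at -1.18 ± 1.09 and apolpp, the lipophorin gene, at -0.01. All 5 hemocyte markers had a difference above 0, with a median of 0.31, but 0 were called (1 at an unadjusted p under 0.05, limma). Their sums of 3686 to 9056 in females and 3391 to 5955 in males overlapped. All 3 glia markers lay below 0, with 0 called and 1, nrv2, at an unadjusted p under 0.05 (limma). Their sums did not overlap, at 1389 to 1543 in females and 1553 to 1983 in males. Of the muscle markers 2 of 3 lay above 0 and 0 were called, with the flight muscle actin Act88F at -1.15 (limma adjusted p = 0.0737) and sums of 4830.2 to 7435 in females and 4491 to 7066 in males. Of the neuron markers 3 of 4 lay above 0 when averaged over lines, with 0 called or at an unadjusted p under 0.05 (limma). Only within BG02257 did most of them lie above 0, 4 of 4 with a median of 0.87. For BG02514 the count was 0 of 4 (median -0.19), and for Canton S B it was 1 of 4 (median -0.14). Neuron sums were 2759 to 3313 in females and 1559 to 3657 in males, where 1559 belongs to the BG02257 male 1a array. Of the gut markers 3 of 4 lay above 0, with 0 called or at an unadjusted p under 0.05, and sums of 534 to 3087 in females and 574 to 1856 in males. Of the ovary and egg markers 3 of 8 reached the brightness filter, with sums of 651 to 1108 in females and 813 to 1797 in males. The part of these cell types in the female values of the factors was not tested.

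The second comparison asked whether the insertion lines differ from Canton S B and from each other, averaged over both sexes. Both comparisons with Canton S B use the same 4 Canton S B arrays. No factor was called in any pair of lines by limma. The photoreceptor gene chp was called higher in both insertion lines than in Canton S B, at 1.79 in BG02514 (adjusted p = 0.0148) and 1.73 in BG02257 (adjusted p = 0.0251), while inaC and trp were not called. Its part in the values of the factors was not tested. For BG02514 against Canton S B, where 0.179% of all probe sets were called, 0 factors were called, and 3 had an unadjusted p under 0.05, all below 0, where 8.02% of all probe sets did. The median difference was -0.03 with 13 of 32 above 0, and -0.01 with 47.4% above 0 over all probe sets. For BG02257 against Canton S B, with 0.0955% of probe sets called, 0 factors were called and 1 had an unadjusted p under 0.05, against 4.01%. Here the median was -0.10 with 10 of 32 above 0, against -0.01 and 47.9% over all probe sets. For BG02514 against BG02257, with 0.334% called, 0 factors were called and 3 had an unadjusted p under 0.05, against 9.99%. Their median was 0.04 with 17 of 32 above 0, and 47.8% of all probe sets were above 0.

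**Figure D5:**
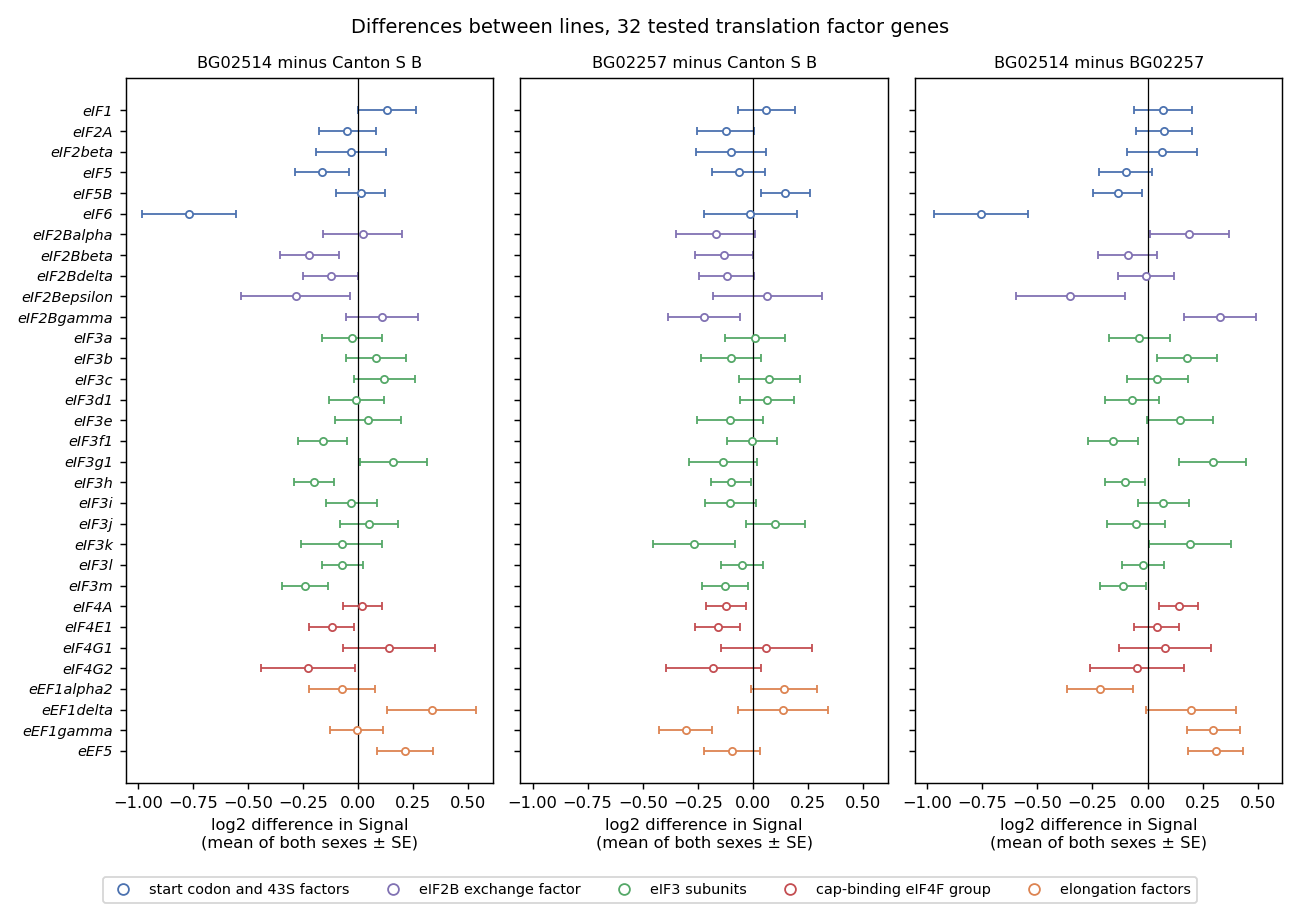
Log2 difference in Signal of the 32 tested factors between each pair of lines, as the mean over both sexes with its standard error. eIF6 lies at -0.77 and -0.76 in the panels with BG02514, and most other factors lie within 0.25 of 0.

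eIF6 had the largest difference between lines, at -0.77 ± 0.21 for BG02514 against Canton S B (adjusted p = 0.284) and -0.76 ± 0.21 against BG02257 (adjusted p = 0.249). It was -0.01 for BG02257 against Canton S B. The BG02514 values rest on the 2 female arrays already given, since the males of that line read 450.5 and 328, within the range of the other lines. Of the 32 factors, 29 lay within 0.25 of 0 for BG02514 against Canton S B, and 30 for BG02257 against Canton S B.

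eEF1gamma had a log2 difference of -0.30 for BG02257 against Canton S B, at an unadjusted p of 0.0278 that did not pass over all probe sets (limma adjusted p = 0.999). Against BG02257 its difference in BG02514 was 0.30 (adjusted p = 0.436), and between BG02514 and Canton S B it was -0.01. The female arrays show the pattern, with both BG02257 females below the other 4 females. The BG02257 males lay below both BG02514 males and overlapped the Canton S B males. eEF5 was at 0.31 for BG02514 against BG02257 (adjusted p = 0.445).

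Among the eIF3 subunits, eIF3m and eIF3h had unadjusted p of 0.0424 and 0.0497 for BG02514 against Canton S B, and neither passed over all probe sets (limma). eIF3m, which belongs to the outer part of the complex, read 7619.6 and 6962 in females and 5713 and 6231 in males of Canton S B. In BG02514 it read 5893 and 5545 in females and 5245 and 5668 in males, and in BG02257 5502 and 6839.9 in females and 5850.0 and 6031 in males. Its difference was -0.24 with an adjusted p of 0.596, and 1 BG02514 array, a female, lay inside the Canton S B range. eIF3h was at -0.20 (adjusted p = 0.621).

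For the subunits of eIF2B, 0 passed the test between lines (limma). eIF2Bgamma read 294 and 298 in females and 283 and 311 in males of Canton S B. In BG02514 it read 289 and 366 in females and 314 and 313 in males, and in BG02257 236 and 293 in females and 219 and 276 in males. Its log2 difference between BG02514 and BG02257 was 0.33 ± 0.16, with a p of 0.0702 and an adjusted p of 0.571 (limma).

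eIF2Bepsilon, the catalytic subunit, read 517 and 420.4 in Canton S B females, 357 and 377 in BG02514 females and 341 and 674 in BG02257 females. In males it read 328 and 604, 404 and 360.0, and 405 and 557. Its difference between BG02514 and BG02257 was -0.35 ± 0.25 with an adjusted p of 0.686, and the gene had its highest value on 1 of the 2 BG02257 female arrays. A second probe set of eIF2Bdelta passed the filter, with a mean Signal of 132, only through Canton S B, where its mean was 164. Its means of 106 in BG02514 and 127 in BG02257 lay under the minimum of 128. It was at -0.70 ± 0.31 for BG02514 against Canton S B (limma unadjusted p = 0.0440, adjusted p = 0.596). Because the filter was passed through Canton S B, this value cannot be read as a difference between the lines. The brighter probe set was at -0.12.

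eEF1delta was at 0.33 ± 0.20 for BG02514 against Canton S B (adjusted p = 0.753). In the other lists of translation genes 0 were called in any pair of lines by limma.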

How the data were processed

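The authors deposited linear intensities, the Signal metric that Microarray Suite 5.0 computes, per the labels. GCOS is named as well, per the submitters' processing notes. No source used here states its version, the background settings or the detection calls. Of 14010 probe sets 44 controls were left out. The platform annotation gave 12443 probe sets 1 symbol, 327 several and 1196 none.

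The trimmed mean of every array was made equal (2% of each tail left out), with log2 taken without a pseudocount. All 12 arrays entered 1 limma 3.58.1 model in R 4.3.3 with 6 group means and a variance trend (6 residual and 5.09 prior degrees of freedom). Tests were two-sided, and Benjamini-Hochberg adjustment ran over the 8380 probe sets whose mean Signal reached 128. Adjusted p-values in the text are from this model. The number of arrays limits the precision.

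Members, lists and tests were chosen with earlier results of these data known. Factors are given on every array if called, if among the 12 with the largest sex difference or the 5 with the largest difference in each pair of lines, and if brightest or a paralog; eIF3h and the dim genes were added. The gene lists hold translational control, aminoacyl-tRNA synthetases, mitochondrial factors, ribosomal proteins and cell type markers. Replicate numbers did not pair the samples (correlations of deviations from -0.24 to 0.27 over 10 pairs of groups). Alternatives covered scaling, filter, pseudocount, variance model, replicate block, probe set choice and leaving out each array. On simulated arrays of 8380 probe sets, 86% of log2 sex differences of 1 were recovered, with 17 false calls. For BG02514 against Canton S B 69% were, with 3 false calls. Differences below 1 were not simulated, and all averaged sex and line differences of the factors were smaller than that. The recovered shares therefore do not say how often differences of the size seen in the factors would be called.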

Additional observations from a re-analysis of the deposited data

Results flagged for a closer look

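For 20 of the factors given on every array, by sex, 40 groups of 6 arrays were examined for 1 array far from the rest. Such an array was held by 3 groups, where chance gives about 1 in 20 groups. eIF3h was not examined. eIF2Bgamma read 219 on the BG02257 male 1a array, and 276 to 314 on the other 5 male arrays. eIF2beta read 1204 on the BG02257 female 1 array, and 1694 to 1995 on the other female arrays. eIF4G2 read 691 on the Canton S B male 2 array, and 409.6 to 461 on the other male arrays.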

How the results depend on the processing

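The count of factors called between the sexes was 1 in all alternatives except 2: 0 without the variance trend, where eEF1gamma had an adjusted p of 0.0503, and 2 without BG02257 male 1a, where eIF3g1 was added at 0.49. In the two-way linear model of untransformed Signal, the 1 factor called was eIF3h (adjusted p = 0.0184) in place of eEF1gamma (0.0552). Over all probe sets the sex calls were 238, against 99 without the variance trend, 103 in the two-way model, 145 with no brightness filter, 246 with a pseudocount of 16, and 116 (without BG02514 female 2) to 299 (without BG02257 male 1b) with 1 array left out. Leaving out 1 array gave 1 to 2 calls, 24 to 27 factors above 0 and medians of 0.13 to 0.16. With no brightness filter the median over 42 genes was 0.081. No factor was called between lines or for a line-dependent sex difference in any setting run (0 to 0 with 1 array left out). With the replicate block 1 factor was called (eEF1gamma, 0.58, adjusted p = 0.0193), 25 were above 0 and the median was 0.14. The block changed no other call of a factor. No called factor changed direction. Dim probe sets limit what can be said of 10 factors.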
